A study of Homo sapiens with 15 samples.

Results

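H1299 is a human lung cancer cell line, derived from a non-small cell carcinoma, that has lost its own p53 gene. Described here are the 3 libraries titled Ctrl-1 to Ctrl-3, which came from H1299 cells overexpressing a control vector, out of 15 RNA-seq libraries in all. They were chosen by their titles alone, and they show which genes the line transcribed with a control vector and no p53 supplied. None of the 15 libraries is labelled as cells without a vector. A response to the vector therefore cannot be told apart from the line's own levels. The other 12 libraries came from the same line and fall into 4 groups of 3: cells overexpressing wild-type p53 (WT), collected in 2023 like Ctrl, and cells overexpressing p53, LLPSEp53_1 or LLPSEp53_2, collected in 2022. Every group shared the p53-null background and the same growth medium, the labels give the tissue as lung and the cell type as cancer cell, and all libraries were made from total RNA. The group p53 was not joined with WT, because the labels keep them apart and give another year. Neither the way the vectors were delivered nor the time after delivery is given in the sources used here. The labels also do not call the replicates separate cultures, so each p-value is set against the spread from library to library, and that spread may be technical only.

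p53 is a transcription factor that is stabilised by DNA damage and other stress, and that switches on genes for cell cycle arrest, repair and cell death. Lung cancers arise from an epithelium of alveolar type 1 and type 2 cells, airway secretory, ciliated and basal cells, and rare neuroendocrine cells, each with its own markers and its own lineage factors, and tumours keep or lose these programmes to different degrees. A line that grows without p53 still carries receptors, growth factor signalling, cell cycle and stress pathways, and a profile of the vector control shows which of these were present at the RNA level.

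Counts were scaled to counts per 1000000 counts (CPM) with TMM factors, and 3 classes were used. A gene was called expressed at 1 CPM or more in each of the 3 Ctrl libraries, absent at 3 counts or fewer in each, and between otherwise. Levels of different genes were compared as CPM per kb of exon. The spread between libraries does not cover the choice of exon length, so an order of genes holds for this length only. The plots of p53 targets and interferon genes order them by CPM, which is not per length. The Ctrl libraries held 17069458, 17484371 and 19228748 counts, so that 3 counts, the limit that a count of 0 allows, stood at 0.163 to 0.177 CPM, for counting error only. Of 19876 protein-coding genes, 12163 (61.2%) were expressed, 2649 (13.3%) were between and 5064 (25.5%) were absent. The median level of protein-coding genes was 1.56 CPM per kb. The 51 gene lists together held 876 genes, of which 585 (66.8%) were expressed, 134 were between and 157 (17.9%) were absent, with a median of 2.23 CPM per kb.

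The 3 Ctrl libraries were not alike in every respect. The 13 mitochondrially encoded mRNAs summed to 4859 CPM in Ctrl replicate 1, against 12680 and 13560 CPM in replicates 2 and 3, and to between 11220 and 13510 CPM in the WT libraries. The interferon response list summed to 9431, 15110 and 10820 CPM in replicates 1 to 3. Each pair of Ctrl libraries differed by more than counting noise (chi-square of 16.8 to 26.6 for each degree of freedom), and each library counted as 1 replicate. Leaving out any of the 3 left between 12235 and 12279 protein-coding genes expressed.

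**Figure D1:**
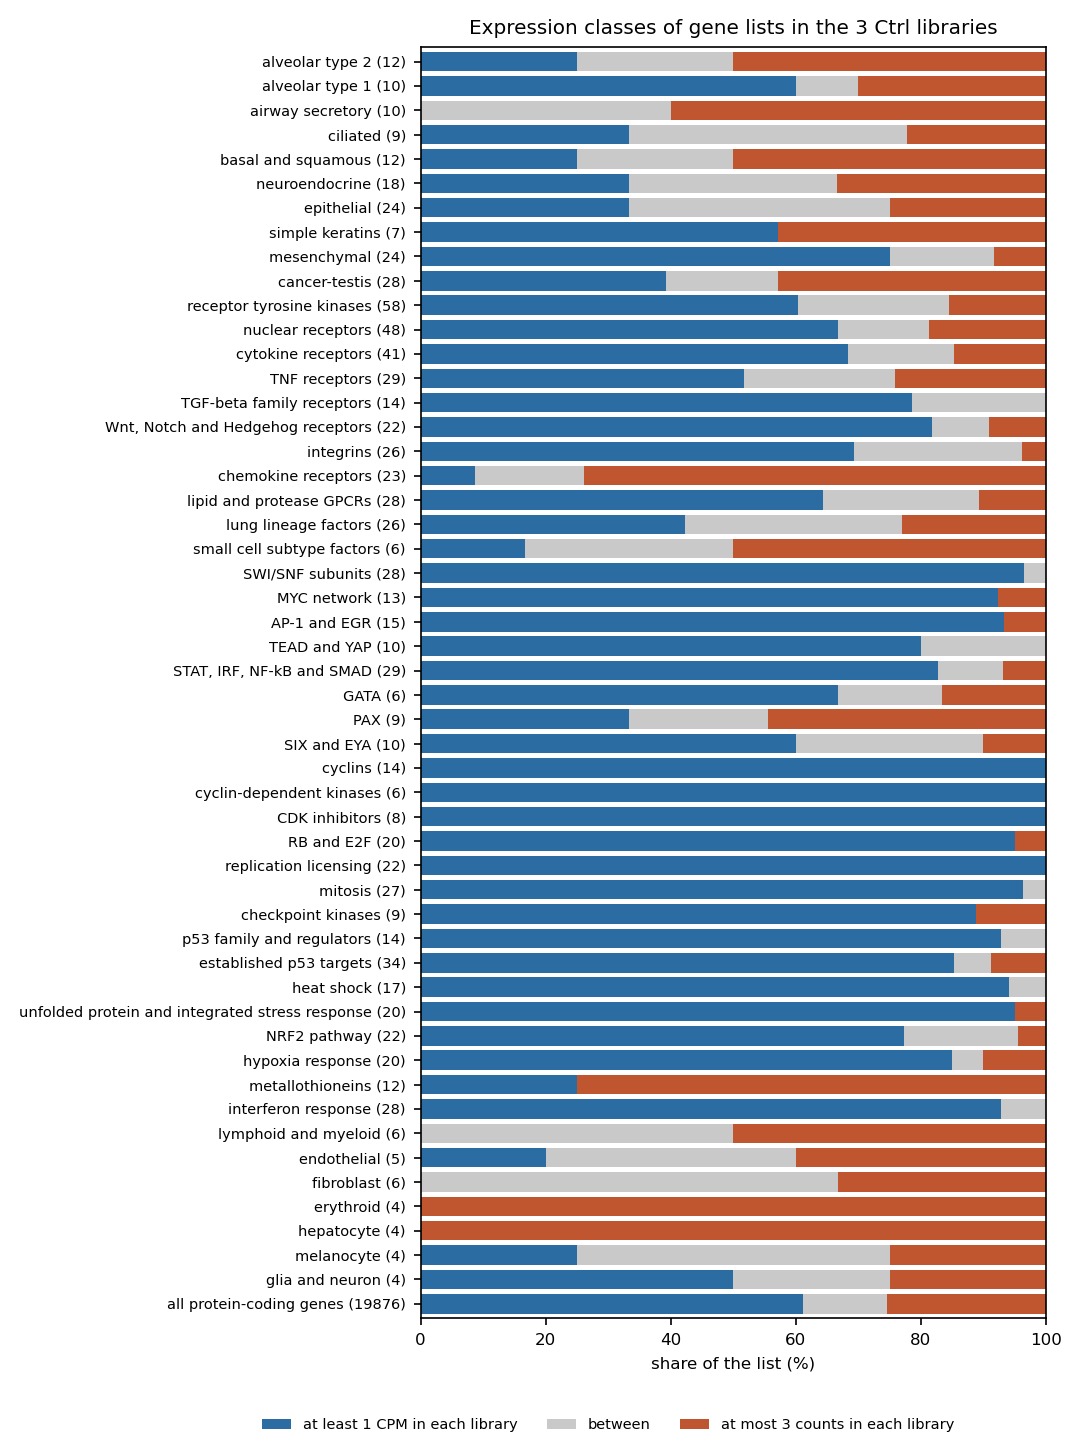
Share of each gene list (%, horizontal axis) in the 3 expression classes over the 3 Ctrl libraries, with the list size in parentheses. Cell cycle lists were expressed nearly whole, while 73.9% of chemokine receptor genes and 75% of metallothionein list genes were absent, against 25.5% of all protein-coding genes.

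Most markers of alveolar type 2, airway secretory and basal or squamous cells were below the expressed class. Of 154 genes in 10 lineage lists, 62 (40.3%) were expressed and 52 (33.8%) were absent, against 61.2% and 25.5% of all protein-coding genes. Of the 12 alveolar type 2 markers, 3 were expressed, 3 were between and 6 were absent. The surfactant protein genes SFTPC, SFTPA1 and SFTPA2 and the phosphate transporter gene SLC34A2 had no count in any Ctrl library, and SFTPD and the protease precursor gene PGC had at most 3 counts in each. The expressed members were ABCA3, the lipid transporter of lamellar bodies, LPCAT1, an enzyme of surfactant lipid synthesis, and LAMP3, a lysosomal membrane protein. ABCA3 (chromosome 16, 2275881 to 2340746) stood at 123, 122 and 153 CPM in replicates 1 to 3, and LPCAT1 at 66.9, 60.7 and 56.6 CPM. Both were of similar height in the 3 libraries. LAMP3 stood at 10.7, 54.8 and 24 CPM, lowest in replicate 1 and highest in replicate 2, and had the largest coefficient of variation (75.8%) of all 9577 protein-coding genes with a mean of 10 CPM or more.

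The start-site sequences of the alveolar type 2 genes are shown because the expressed and the absent members differed in their content of CG dinucleotides. The 200 bases before the start were taken from RefSeq promoter windows (GRCh38.p14), are written 5′ to 3′ on the strand of the gene, and have each CG in capitals. ABCA3 lies on the minus strand at chr16:2340729-2340928, LPCAT1 on the minus strand at chr5:1523961-1524160, SFTPA2 on the minus strand at chr10:79560408-79560607 and SFTPD on the minus strand at chr10:79949106-79949305.
ABCA3: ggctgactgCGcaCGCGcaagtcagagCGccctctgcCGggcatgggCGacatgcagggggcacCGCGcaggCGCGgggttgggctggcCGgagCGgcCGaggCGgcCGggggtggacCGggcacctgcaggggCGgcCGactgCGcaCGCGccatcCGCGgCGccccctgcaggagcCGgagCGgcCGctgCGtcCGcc
LPCAT1: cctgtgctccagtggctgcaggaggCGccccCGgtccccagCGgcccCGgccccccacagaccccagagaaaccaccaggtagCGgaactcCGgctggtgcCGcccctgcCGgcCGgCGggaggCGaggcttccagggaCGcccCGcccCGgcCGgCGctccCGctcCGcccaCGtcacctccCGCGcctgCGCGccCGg
SFTPA2: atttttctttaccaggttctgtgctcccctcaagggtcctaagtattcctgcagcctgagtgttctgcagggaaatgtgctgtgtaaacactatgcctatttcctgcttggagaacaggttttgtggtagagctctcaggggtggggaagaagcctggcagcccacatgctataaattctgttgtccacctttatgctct
SFTPD: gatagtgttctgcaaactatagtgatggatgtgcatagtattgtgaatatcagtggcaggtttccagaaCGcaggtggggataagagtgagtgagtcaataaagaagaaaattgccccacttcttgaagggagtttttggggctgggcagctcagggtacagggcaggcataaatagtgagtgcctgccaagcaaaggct
The printed stretches hold 29 CG in ABCA3 and 24 in LPCAT1, which were expressed, and 0 in SFTPA2 and 1 in SFTPD, which were absent. Over 15301 protein-coding genes with a window of 300 bases, the median was 26 CG per window in the 9946 expressed genes, 13 in 1913 genes between and 5 in 3442 absent genes. The 2 matched alveolar type 2 genes that were expressed held 38 and 42 CG per window, and the 5 that were absent held between 1 and 22.5, averaged over the windows of a gene. The 22.5 was that of SLC34A2, and LAMP3, which was expressed, had no matched window. SFTPA2 has another window, not printed, with 2 CG in its 200 bases before the start. CG content is a feature of the sequence and was not tested as a cause of any level.

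Of the 10 alveolar type 1 markers, 6 were expressed and 3 were absent. CAV1 and CAV2, which code for the coat proteins of caveolae, led the list at 62.9 ± 5.2 and 13.5 ± 0.976 CPM per kb (mean ± SD, n = 3, as for all such values below). AGER, the receptor that marks type 1 cells, stood at 2.95, 3.31 and 2.6 CPM, and the water channel gene AQP5 and the podoplanin gene PDPN had no count. CAV1 and CAV2 are known from many cells outside the lung. No member of the 10 airway secretory markers was expressed: the secretoglobin genes SCGB1A1 and SCGB3A1, AGR2 and TFF3 had no count, MUC5AC and BPIFA1 had at most 3 counts in each library, and the other 4 were between. Of 9 ciliated cell markers, 3 were expressed, led by the tubulin polymerisation gene TPPP3 at 0.572 ± 0.0877 CPM per kb, while the ciliogenesis factor gene FOXJ1 stood at 0.177, 0.393 and 0.542 CPM. The ciliated marker CCDC39 was between, but 90.4% of its exon length overlaps other annotated genes.

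Basal and squamous markers were expressed in 3 of 12 cases. The keratin genes KRT5, KRT14 and KRT6A had no count, and TP63, the master factor of basal cells, stood at 0.413, 0.225 and 0.108 CPM. ITGA6, an integrin subunit found in many epithelia, was the highest of the list at 26.3 ± 2.53 CPM per kb, followed by S100A2 at 9.2 ± 1.45 and KRT15 at 0.657 ± 0.216 CPM per kb. Of 18 neuroendocrine markers, 6 were expressed, 6 were between and 6 were absent. UCHL1, a ubiquitin hydrolase of neurons, stood at 805, 653 and 761 CPM, 324 ± 34.3 per kb, far above the other members. ENO2, the neuronal enolase, followed at 13.9 ± 0.489 and DLL3, a Notch ligand, at 6.24 ± 1.42 CPM per kb, and SCG2, CHGB and SYP, which code for proteins of secretory vesicles, at 2.41 ± 0.136, 1.33 ± 0.234 and 0.574 ± 0.128. The neuroendocrine factor gene INSM1, the decarboxylase gene DDC and the RNA-binding protein gene ELAVL4 had no count, and NEUROD1, which was between, had a mean of 0.206 CPM.

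Most genes of the epithelial list, CDH1 among them, were below the expressed class, while most mesenchymal genes were expressed. CDH1 (chromosome 16, 68737225 to 68835548), which codes for E-cadherin of the epithelial junction, stood at 0.177, 0 and 0.163 CPM, so that no Ctrl library held more than 3 counts of it. Of 24 epithelial genes, 8 were expressed, 10 were between and 6 were absent. The absent genes were CDH1, the factor genes OVOL1, OVOL2 and EHF, the GTPase gene RAB25 and the protease gene PRSS8. EPCAM, the splicing factor genes ESRP1 and ESRP2, and GRHL2 were between. The highest were LSR, a receptor of tricellular junctions, at 34.7 ± 1.21 CPM per kb, DSP, the desmosome protein desmoplakin, at 18.2 ± 3.01, and PKP3, CLDN3, OCLN and CLDN4 at 3.24 ± 0.0583, 3.16 ± 0.884, 2.84 ± 0.0985 and 1.21 ± 0.0957. Desmosome and tight junction genes were thus present at the RNA level without the E-cadherin gene.

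Of 24 mesenchymal genes, 18 were expressed, 4 were between and 2, CDH11 and COL5A1, were absent. The median of the list was 3.59 CPM per kb, against 0.113 for the epithelial list and 1.56 for all protein-coding genes. VIM (chromosome 10, 17228259 to 17237593), the intermediate filament vimentin, stood at 1008, 970.4 and 1109 CPM and varied little between the 3 libraries (coefficient of variation 6.97%). The matrix enzyme LOXL2 stood at 51.4 ± 8.51 CPM per kb, the collagen VI chains COL6A2 and COL6A1 at 44.1 ± 3.51 and 28.6 ± 2.42, and the matrix protein TGFBI at 18.4 ± 1.07. The fibrillar collagen genes COL1A1, COL1A2 and COL3A1 were all between, so the mesenchymal list held no expressed fibrillar collagen gene. Simple keratins were kept: KRT8 stood at 1659, 1449 and 1969 CPM and KRT18 at 1224, 1064 and 1364 CPM, with KRT80 at 40.1 ± 1.18 and KRT7 at 1.44 ± 0.184 CPM per kb, whereas KRT19 was absent and KRT20 and KRT23 had no count. The Ctrl cells therefore held RNA for keratins and vimentin together.

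**Figure D2:**
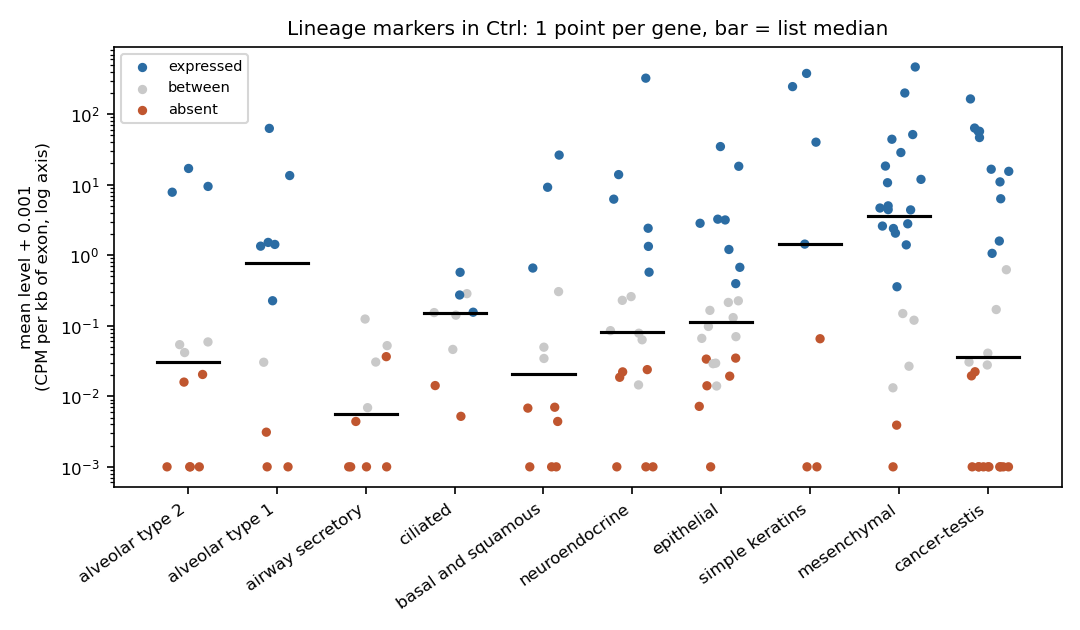
Mean level of each lineage marker over the 3 Ctrl libraries (CPM per kb of exon plus 0.001, log axis), 1 point per gene coloured by class, with the median of each list as a bar. The mesenchymal median (3.59 CPM per kb) was above the epithelial median (0.113) and the alveolar type 2 median (0.0301).

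Of 28 cancer-testis genes, which are normally confined to the germ line and are often switched on in tumours, 11 were expressed and 12 were absent. MAGEA4 led with 538, 483 and 499 CPM, 164 ± 9.25 per kb, and PRAME stood at 215, 216 and 218 CPM, a spread of 0.54% between the libraries. MAGEA3 and MAGEA6 stood at 63.6 ± 5.75 and 57.1 ± 7.39 CPM per kb, but these are near-identical copies whose reads the counting could split, so each single value is uncertain. MAGEA12 and MAGEA1 followed at 46.6 ± 3.17 and 16.6 ± 1.59. MAGEB2, MAGEC1, the 3 SSX genes, PAGE2, PAGE5, SPANXB1 and the germ cell genes DDX4 and DAZL had no count; the SSX genes and SPANXB1 also have close copies, as do the CTAG genes, which were between.

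Most markers of other cell types were below the expressed class. Of 33 markers of blood, endothelial, fibroblast, erythroid, liver, melanocyte and neural cells, 4 were expressed, 12 were between and 17 were absent, and their sum was 26.8, 32.3 and 37.2 CPM in replicates 1 to 3. The pan-leukocyte gene PTPRC, CD3E, LYZ, HBB, HBA2, AFP and the endothelial gene EMCN had no count. The 4 expressed were the VEGF receptor gene KDR at 7.5 CPM, the oligodendrocyte factor gene OLIG2 at 10.3, the synaptic gene SNAP25 at 6.91 and the melanosome gene PMEL at 1.98 CPM. Those means came with SDs of 2.01, 1.77, 0.974 and 1.04 CPM.

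Among receptor tyrosine kinases, AXL was far above the others. Of 58 receptor tyrosine kinase genes, 35 were expressed, 14 were between and 9 were absent. AXL (chromosome 19, 41219203 to 41261766), the receptor of GAS6, stood at 2345, 2277 and 2487 CPM, or 459.7 ± 20.8 CPM per kb. EPHA2, a receptor of ephrin-A ligands, stood at 536, 463 and 573 CPM, or 126 ± 13.4 per kb, and MET, the receptor of hepatocyte growth factor, at 197, 204 and 198 CPM, or 28.4 ± 0.509 per kb. The lowest AXL library was above the highest EPHA2 library per kb, and the lowest EPHA2 library was above the highest MET library. EPHB4 followed MET at 23.6 ± 1.96 CPM per kb, and the order of these 2 rests on the exon length used. EGFR (chromosome 7, 55019021 to 55211628), the receptor of EGF, stood at 151, 142 and 154 CPM, or 11.9 ± 0.486 per kb. FGFR1 stood at 169, 138 and 174 CPM, or 11.6 ± 1.39 per kb. Per kb these neighbours in the order did not differ beyond their spread between libraries, which does not cover the length used.

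The 9 absent receptor kinases included ALK and ROS1, known as drivers in other lung cancers. ALK, ROS1, ERBB4, MUSK, INSRR, EPHA6, EPHA8 and EPHB1 had at most 3 counts in each library, and EPHA4 had none. RET was expressed at 1.24, 2.41 and 2.17 CPM and FGFR3 at 5.78, 4.66 and 5.42 CPM, both low. KIT, PDGFRA, PDGFRB, CSF1R, FGFR2 and the NTRK genes were between.

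**Figure D3:**
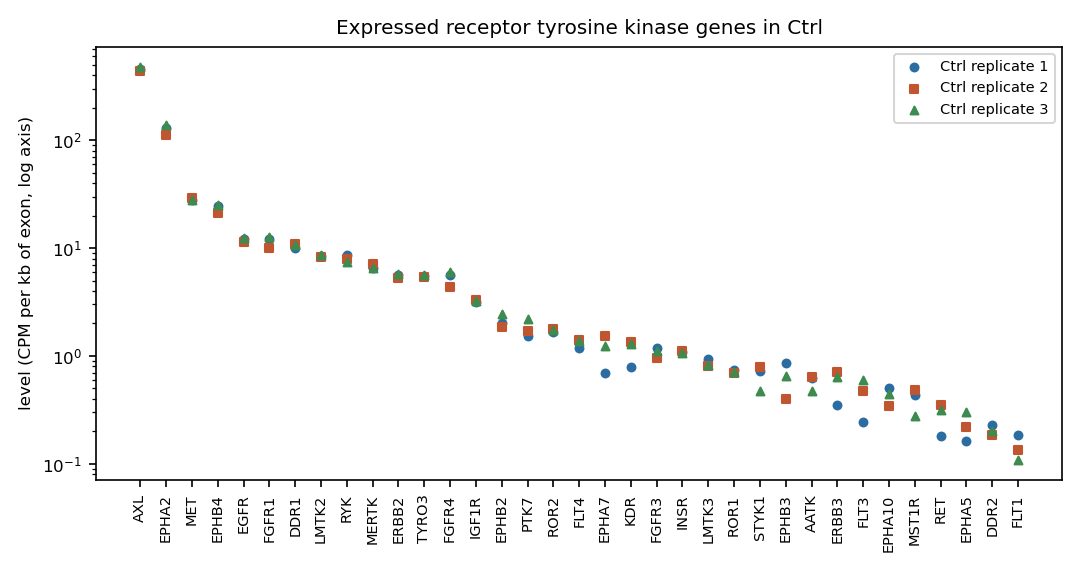
Levels of the 35 expressed receptor tyrosine kinase genes (CPM per kb of exon, log axis) in the 3 Ctrl libraries, ordered by their mean. AXL at 460 and EPHA2 at 126 CPM per kb (means) stand above MET at 28.4, and the 3 libraries lie close together for the higher genes.

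Of 48 nuclear receptor genes, 32 were expressed and 9 were absent. NR0B2 had no count, and the absent genes also included the progesterone receptor gene PGR, HNF4A, RARB, NR5A1, NR1I2 and ESRRB. ESR1, the oestrogen receptor gene, was between. ESRRA, NR2F6 and NR1H2 led at 28 ± 2.93, 27.9 ± 3.52 and 26.3 ± 2.5 CPM per kb, and these 3 did not differ beyond their spread between libraries. RXRB, a partner of many of these receptors, stood at 22.8 ± 0.216, and NR4A2, an immediate early gene, at 20.4 ± 4.61 CPM per kb.

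Of 26 integrin genes, 18 were expressed and only ITGA8 was absent. ITGA3 stood at 1541, 1867 and 1818 CPM, 178 ± 17.9 per kb, and ITGB1, its beta partner, at 416, 428 and 420.3 CPM, 70.1 ± 0.992 per kb. ITGB5, ITGA5, ITGA6 and ITGAV followed at 57.1 ± 5.06, 32.1 ± 3.7, 26.3 ± 2.53 and 8.29 ± 0.843 CPM per kb. These code for subunits that bind laminin (with ITGA3 and ITGA6), fibronectin (with ITGA5) and vitronectin (with ITGAV and ITGB5).

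Of 29 TNF receptor genes, 15 were expressed, 7 were between and 7 were absent. TNFRSF12A, the receptor of TWEAK, stood at 420.4, 327 and 364 CPM and TNFRSF1A, the main TNF receptor, at 344, 348 and 395 CPM. The TRAIL receptor genes TNFRSF10B and TNFRSF10A stood at 20.7 ± 1.57 and 9.72 ± 0.0619 CPM per kb, TNFRSF21 at 11.8 ± 1.58 and CD40 at 8.34 ± 0.798. EDAR, EDA2R, TNFRSF4 and TNFRSF13B had no count. TNFRSF6B had none either, but its whole exon length (100%) overlaps other annotated genes, so this value is uncertain.

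All 14 receptors of the TGF-beta family were above the absent class, with 11 expressed, led by ACVR1 at 18.4 ± 0.318, ACVR1B at 8.25 ± 1.01 and TGFBR2 at 8.03 ± 0.198 CPM per kb. Of 22 Wnt, Notch and Hedgehog receptor genes, 18 were expressed, with FZD2 at 23.1 ± 5.53, FZD6 at 14.8 ± 0.701, the Wnt co-receptor LRP5 at 13.9 ± 1.29, the Hedgehog transducer SMO at 12.7 ± 0.609 and NOTCH2 at 10.6 ± 0.639 CPM per kb, while FZD10 and the stem cell marker LGR5 were absent. Of 41 cytokine receptor genes, 28 were expressed. IL13RA2, a decoy receptor of IL-13, led at 33.8 ± 3.07 CPM per kb, followed by IL6ST, the shared IL-6 signal transducer, at 25 ± 1.72, and IFNGR2 and IL13RA1 at 23.5 ± 3.12 and 20.4 ± 2.51. The IL-2 receptor genes IL2RA, IL2RB and IL2RG, CSF2RB and CSF3R were absent, and IL2RA had no count.

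Of 23 chemokine receptor genes, 17 were absent, 4 were between and 2 were expressed. CXCR4, the receptor of CXCL12, stood at 3.84, 2.41 and 4.01 CPM, and CCR10 at 3.42, 1.8 and 1.68 CPM. CXCR1, CXCR2, CCR2, CCR3, CCR6, CCR7, ACKR1 and ACKR3 had no count. Overlap with other genes covers 88.6% of CXCR5 exons and 69.2% of CCR6 exons, so the low values of these 2 are uncertain. Of 28 receptors for lipids, proteases and other small ligands, 18 were expressed, with F2RL1 at 16.1 ± 1.2, ADORA2B at 11.9 ± 1.89 and F2R at 9.32 ± 0.283 CPM per kb.

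Of the transcription factors that specify lung cells, 15 of 26 were below the expressed class. NKX2-1 (chromosome 14, 36516392 to 36521149), the factor that marks lung adenocarcinoma of alveolar type, stood at 1.3, 1.29 and 0.921 CPM and was between. The list held 11 expressed genes, 9 between and 6 absent, and FOXA2, TBX5 and ELF5 had no count. The expressed ones were led by ETV5 at 20.9 ± 1.6, SOX9 at 16.8 ± 2.65, GATA6 at 16.1 ± 0.296, ETV4 at 12.6 ± 1.81, ID2 at 6.07 ± 0.903 and CEBPA at 6.06 ± 0.0425 CPM per kb. ETV4, ETV5, SOX9 and ID2 are known from the distal tip of the developing lung, and CEBPA from alveolar type 2 cells. Of the 6 factors that define small cell lung cancer subtypes, YAP1 stood at 139, 143 and 133 CPM, while ATOH1, POU2F3 and INSM1 were absent and NEUROD1 was between.

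The SWI/SNF chromatin remodelling complex was expressed in 27 of its 28 genes, with ACTL6B, its neuronal subunit gene, between. BCL7B, SMARCD1 and SMARCD2 led at 28.8 ± 3.75, 28.4 ± 3.15 and 23.1 ± 1.44 CPM per kb. SMARCA4, one of its ATPases, stood at 27, 23.6 and 25.3 CPM, or 1.6 ± 0.107 per kb, and the other ATPase gene SMARCA2 at 26.6, 31 and 27.1 CPM, or 1.52 ± 0.13 per kb. Per kb these did not differ beyond their spread between libraries, and both lay below the median of the list, 8.17 CPM per kb. H1299 is widely used as a line without SMARCA4 protein, and counts of a whole gene do not show which exons were transcribed or whether protein was made.

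Among growth-related factors, MYC stood at 314, 265 and 343 CPM, 102 ± 13.2 per kb, with MAX, its partner, at 14.8 ± 1.65, while MYCN was absent. Of 15 AP-1 and EGR genes, 14 were expressed and BATF was absent. FOSL1 stood at 780.5, 793 and 945 CPM, 445 ± 48.5 per kb, above JUN at 172 ± 23.1, JUND at 159.9 ± 13.6, JUNB at 108 ± 10.1 and EGR1 at 106 ± 15.2 CPM per kb, and its lowest library lay above the highest of each. TEAD4 stood at 55.1 ± 7.85 CPM per kb, with its co-activators YAP1 and WWTR1 at 22 ± 0.807 and 9.95 ± 0.599. In the list of STAT, IRF, NF-kB and SMAD factors, 24 of 29 were expressed. NFKB2 stood at 597, 485 and 572 CPM and RELB at 313, 253 and 321 CPM, and per kb IRF7 stood at 55.9 ± 15, RELA at 45.7 ± 4.97 and STAT2 at 34.5 ± 16.4. STAT2 and IRF7 were lowest in replicate 1 and highest in replicate 2, as was the interferon list sum. IRF8, a myeloid factor, was absent, and IRF9, at 1.97 CPM, has 48.4% of its exon length in overlap with other genes. PAX and GATA genes were expressed in part: GATA6, GATA2 and GATA3 at 16.1 ± 0.296, 3.49 ± 0.23 and 3.02 ± 0.0939 CPM per kb, and PAX8 and PAX6 at 0.619 ± 0.031 and 0.515 ± 0.0585, while PAX1, PAX3, PAX4 and PAX7 had no count.

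The cell cycle machinery was transcribed nearly whole. Of 106 cell cycle genes, 103 (97.2%) were expressed, 1 was between and 2 were absent, with a median of 13.96 CPM per kb against 1.56 for all protein-coding genes. All 14 cyclins, 6 cyclin-dependent kinases, 8 CDK inhibitors and 22 replication licensing genes were expressed. The absent genes were WEE2, an oocyte kinase, and TFDP3, a testis factor, both with no count, and the gene between was PRC1, at 1.21 CPM with 58.4% of its exons in overlap with other genes. CCND1, the cyclin of G1 phase, stood at 689, 894 and 763 CPM, 162 ± 21.4 per kb, and CCNB1, the mitotic cyclin, at 344, 253 and 315 CPM, 119 ± 18.2 per kb. CDK4 led the kinases at 42.7 ± 3.79, above CDK7 at 33.8 ± 1.48, CDK1 at 23.8 ± 2.7, CDK2 at 14 ± 1.2 and CDK6 at 12.9 ± 1.45 CPM per kb; 43.2% of CDK4 exons overlap another gene.

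Mitotic genes were led by TPX2, a spindle factor, at 675, 483 and 586 CPM and by CDC20, an activator of the anaphase complex, at 340.03, 264 and 356 CPM, and licensing genes by MCM7, a subunit of the replicative helicase, at 793, 627 and 808 CPM. All 3 were lowest in replicate 2. The mitosis list as a whole summed to 4398, 3496 and 4244 CPM in replicates 1 to 3, and the interferon list was highest in that same replicate 2; whether the one had a part in the other was not tested. MYBL2 and FOXM1, which drive mitotic genes, stood at 89 ± 21.2 and 46.2 ± 7.78 CPM per kb, and the E2F genes E2F4 and E2F1 at 30.8 ± 2.88 and 23.7 ± 3.67. RB1, the retinoblastoma gene, stood at 55.9, 60.9 and 51.7 CPM, so its RNA was present in every library.

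CDK inhibitors were expressed without p53. CDKN1A (chromosome 6, 36676460 to 36687339), the p21 gene and a well known p53 target, stood at 230.3, 250.03 and 246 CPM, 79.3 ± 3.39 per kb, the highest of its list. CDKN2A (chromosome 9, 21967753 to 21995301), which codes for p16 and ARF and is often deleted in lung cancer, stood at 170.2, 126 and 125 CPM, 32.4 ± 5.94 per kb, highest in replicate 1. CDKN1B, CDKN3, CDKN2D and CDKN2B stood at 24.5 ± 1.22, 17.2 ± 1.82, 12 ± 0.761 and 10.6 ± 0.786 CPM per kb. Among checkpoint kinases, PRKDC, the DNA-dependent protein kinase, stood at 64.3 ± 2.1, CHEK2 at 23.5 ± 4.51, CHEK1 at 11.4 ± 0.69 and WEE1 at 3.85 ± 0.355 CPM per kb.

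Of 34 established p53 targets, 29 were expressed in the p53-null control, 2 were between and 3 were absent, with a median of 5.68 CPM per kb. PMAIP1, which codes for the death protein NOXA, stood at 638, 681 and 531 CPM, 276 ± 34.7 per kb, and GADD45A, a DNA damage gene, at 422, 257 and 307 CPM. CCNG1, PLK2 and SESN2 followed CDKN1A at 68.8 ± 2.17, 48.4 ± 0.503 and 33.5 ± 4.57 CPM per kb. MDM2 (chromosome 12, 68808176 to 68850686), the ubiquitin ligase that degrades p53, stood at 57.6, 61 and 57.5 CPM. EDA2R and INPP5D had no count and SPATA18 at most 3 in each library. Of 14 p53 family members and regulators reported, 13 were expressed, with HIPK2, USP7 and COP1 at 11.7 ± 1.18, 9.82 ± 0.601 and 7.96 ± 0.597 CPM per kb, and only TP63 was between.

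When wild-type p53 was supplied, 665 of 16156 genes tested differed from Ctrl (percent called 4.12), 524 higher (3.24) and 141 lower (0.873), by edgeR's quasi-likelihood test with a Benjamini-Hochberg adjusted p under 0.05. With 1 library left out the calls were 356 without WT replicate 1, 369 without Ctrl replicate 3 and 1381 without Ctrl replicate 2, and the lower calls alone ranged from 31 without Ctrl replicate 3 to 658 without Ctrl replicate 2 (33 without WT replicate 3, 35 without WT replicate 1). The p53 target list had the largest share of called members of the 51 lists (83.9%): 26 of 31 members tested rose and 0 fell, with a median log2 difference of 1.06 against -0.01 over all protein-coding genes. Such lists were drawn from earlier work on p53, so the direction is what their name describes. The 26 include INPP5D and PHLDA3, with Ctrl means of 0 and 0.325 CPM. Both passed the low-count filter only because WT was high, so their calls add nothing to this share. BTG2, an antiproliferative gene, stood at 3.54, 4.1 and 3.68 CPM in Ctrl, and at 61.1, 61.3 and 54.9 CPM with WT, a rise of 3.97 ± 0.14 (SE) on the log2 scale (edgeR adjusted p = 9.03e-14). MDM2 stood at 298, 266 and 247 CPM with WT, a rise of 2.20 ± 0.11 (SE) (edgeR adjusted p = 4.95e-11), and CDKN1A at 769.9, 783 and 716 CPM, a rise of 1.64 ± 0.11 (SE) (edgeR adjusted p = 5.80e-09). The groups of 3 libraries did not overlap for any of these 3 genes, which adds nothing to calls of this strength. PMAIP1 and GADD45A, the 2 highest targets per kb in Ctrl, did not pass: PMAIP1 stood at 714, 754 and 759 CPM with WT (edgeR adjusted p = 0.246) and GADD45A at 347, 283 and 292 CPM (edgeR adjusted p = 0.791). INPP5D, at 0 in Ctrl, stood at 1.94, 2.64 and 1.89 CPM with WT, at least 12.7-fold higher against a limit of 3 counts per Ctrl library. The call of AEN was lost without Ctrl replicate 3. BAX lost its call without any of the 3 WT libraries and without Ctrl replicate 1 or 2, and XPC without WT replicate 1 or 2 or Ctrl replicate 3. The calls of 23 of the 26 targets held in all 11 alternatives, with between 24 and 25 called when any one library was left out.

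**Figure D4:**
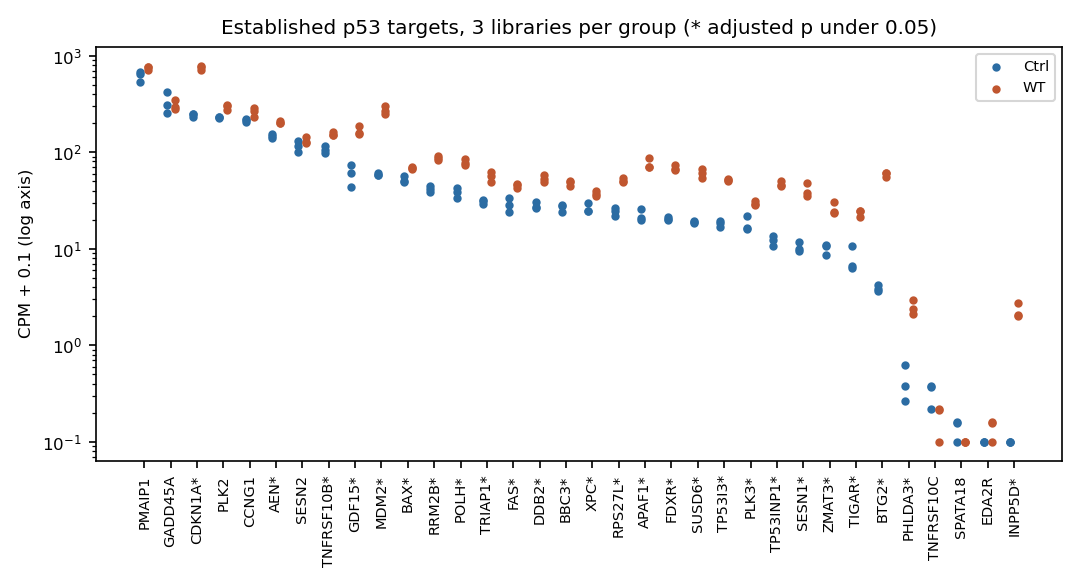
CPM plus 0.1 (log axis) of the 34 established p53 targets in the 3 Ctrl and 3 WT libraries, 1 point per library, ordered by the Ctrl mean. Stars mark the 26 genes with an adjusted p under 0.05; PMAIP1 and GADD45A, the first 2 by Ctrl mean, carry none.

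Over all lists, 59 of the 632 members tested were higher with WT and 14 lower, 11.6% in all, against 4.12% of all genes tested. The lists were chosen with earlier results of these data known, so a share above 4.12% is not independent of that choice. The established p53 targets alone gave 26 of these 73 calls. Of the 73 calls, 47 held in all 11 alternatives. The lineage marker lists held 2 higher and 0 lower of 72 tested (2.78%): CAV1 and NGFR. The call of CAV1 was lost without WT replicate 1 or without WT replicate 3. The list of lung lineage factors held 4 higher (SOX2, FOXF1, ID2 and TBX2) and 1 lower (GATA6) of 15 tested (33.3%). ID2 stood at 13.1, 15.5 and 11.5 CPM in Ctrl and 34.3, 26.1 and 31.8 CPM with WT (edgeR adjusted p = 1.59e-05), and GATA6 at 62.4, 64.7 and 63.9 and 43.1, 52.1 and 40.3 CPM (edgeR adjusted p = 0.0111). The calls of SOX2 and GATA6 were lost without WT replicate 1 or 3 or Ctrl replicate 3, and that of FOXF1 without WT replicate 1. Receptors held 19 higher and 4 lower of 198 (11.6%, against 4.12% of all genes tested). These counts were 11 and 2 without Ctrl replicate 3, 12 and 3 without WT replicate 1, and 22 and 10 in the replicate block fit. Over all genes they were 338 and 31, 321 and 35, and 894 and 751 in the same fits. The receptor genes S1PR3 and F2RL2, called higher, had Ctrl means of 0.192 and 0.264 CPM. They passed the low-count filter only because WT was high. The TNF receptor list alone gave 5 higher and 2 lower of 18 tested. FGFR3 stood at 5.78, 4.66 and 5.42 CPM in Ctrl and 44.3, 40.8 and 37.2 CPM with WT (edgeR adjusted p = 2.18e-11). NOTCH3 stood at 15.5, 19.9 and 22.5 and 51.2, 57 and 36 CPM (edgeR adjusted p = 1.76e-05). The AP-1 and EGR list went the other way, with 6 of 14 tested lower and 2 higher (57.1% called), and the same counts under the other scalings of edgeR. The lower calls were 8 with DESeq2, 9 if low counts were not filtered and 9 in the replicate block fit, and between 5 and 7 with any one library left out. Over all genes, lower calls in the same fits were 192, 295 and 751, and between 31 and 658 with a library left out. EGR1 fell from 293, 316 and 385 CPM in Ctrl to 178, 154 and 115 CPM with WT (edgeR adjusted p = 2.58e-05) and FOSB from 148, 95 and 107 to 74.9, 61.2 and 59.7 CPM (edgeR adjusted p = 0.000685), while EGR2 rose from 5.13, 7.07 and 7.21 to 28, 21.4 and 22.7 CPM (edgeR adjusted p = 1.83e-07). Of the 8 calls in this list, that of FOSL2 was lost without WT replicate 2 or 3 or Ctrl replicate 3, and that of ATF3 without WT replicate 1 or Ctrl replicate 3. Cell cycle lists held 6 higher and 1 lower of 104 (6.73%, against 4.12% of all genes tested). CDKN1A, the replication clamp gene PCNA and the cyclin gene CCNA1 were higher in all 11 alternatives. The higher calls of E2F7, RB1 and WEE1 and the lower call of CDC25B were all lost without WT replicate 1 and without Ctrl replicate 3, and each also without 2 or 3 of the other libraries. The lower calls of these lists became 8 without Ctrl replicate 2, and also 8 in the replicate block fit. Over all genes the lower calls rose as well, from 141 to 658 and 751 in these fits, so the 8 are not particular to cell cycle genes.

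Few genes absent in Ctrl were expressed with WT. Of 5020 absent protein-coding genes, leaving out Y-linked ones, 12 (0.239%) reached 1 CPM in every WT library, and all 12 were called higher by edgeR. Beside INPP5D they included the neuronal factor gene NHLH2 at 3.03, 2.1 and 1.89 CPM with WT, the epithelial factor gene GRHL3 at 1.43, 1.5 and 1.94 CPM and the Hedgehog ligand gene IHH at 3.66, 3.77 and 3.42 CPM, each with at most 3 counts in any Ctrl library. The others were CHRND, PROKR1, KCNS2, LSP1, LHX5, KCNK10, ZDHHC22 and a gene with no symbol. They were counted only because WT was high, so the call adds nothing to the count.

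Stress pathways were transcribed in the vector control. Of 165 genes in the stress lists, 138 (83.6%) were expressed. The heat shock list had the highest median of these lists, 39.65 CPM per kb, followed by the list of integrated stress and unfolded protein genes at 33.93 and the interferon list at 30.3, while the interferon list had the largest summed CPM in each Ctrl library. HSP90AB1 and HSP90AA1, the cytosolic HSP90 chaperones, stood at 2007, 1701 and 2023 and 2697, 2127 and 2235 CPM, and HSPA8, HSPB1 and HSPD1 at 240.4 ± 24.7, 214 ± 18.3 and 147 ± 16.1 CPM per kb. HSPA6, a strictly inducible HSP70 gene, was between, at 0.472, 0.618 and 0.271 CPM. Of 20 genes of the integrated stress and unfolded protein responses, 19 were expressed. ATF4, its effector, stood at 532, 461 and 516 CPM, and HSPA5, the chaperone of the endoplasmic reticulum, at 469, 425 and 419.7 CPM. CALR stood at 142 ± 8.3, PPP1R15A at 112 ± 14.7 and DDIT3, the death factor CHOP, at 98.7 ± 2.03 CPM per kb; 39.6% of DDIT3 exons overlap other genes. ASNS, at 4.93 CPM, has 44.6% of its exons in overlap.

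Of 22 NRF2 pathway genes, 17 were expressed. TXNRD1, thioredoxin reductase, stood at 1127, 977 and 992 CPM, PGD at 87.8 ± 9.15, NQO1 at 69.2 ± 2.25 and HMOX1, haem oxygenase, at 44.5 ± 2.14 CPM per kb. The aldo-keto reductase genes AKR1C1, AKR1C2 and AKR1C3, which are close copies of each other, were between and AKR1B10 was absent. Of 20 hypoxia genes, 17 were expressed, led by the glycolytic enzymes PGK1 at 112 ± 8.87 and LDHA at 102 ± 10.7 CPM per kb, while the carbonic anhydrase genes CA9 and CA12 had no count. Among metallothioneins, which bind zinc and copper, only 2 genes of the family in this list were in the expressed class. MT2A stood at 764, 783 and 796 CPM and MT1X at 12.6, 23.9 and 19.4 CPM. The other 9 metallothionein genes were absent, of which MT1A, MT1B, MT1E, MT1H, MT1M and MT4 had no count. How reads shared by similar genes were counted is not known, so the low values within this family are uncertain. The list's other expressed member was MTF1, the metal-sensing factor.

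Interferon-stimulated genes were transcribed in the vector control. Interferons signal through a complex that includes STAT2 and IRF9, and many of their target genes carry the interferon-stimulated response element in their promoters. Of 28 genes in the interferon list, 26 were expressed, and the list's median was 30.3 CPM per kb. ISG15 (chromosome 1, 1001138 to 1014540), a ubiquitin-like modifier, stood at 2156, 2343 and 1891 CPM, or 2264 ± 241 per kb, a level per kb below only EEF1A1 and TMSB10 among all protein-coding genes. IFI6, IFIT3, IFIT2, OASL and IFITM3 followed at 659.8 ± 189, 650.3 ± 190.03, 391 ± 125, 301 ± 99.2 and 300.5 ± 50.1 CPM per kb. The interferon genes themselves were low: IFNB1 stood at 0.531, 1.8 and 0.542 CPM and IFNL1 at 0.649, 2.53 and 0.217 CPM. The 5 promoters below are of 4 list members with a match to the pattern GAAA, any 2 bases and GAAA again, and of OAS1, which has no match to it. They show the 200 bases before the start from the RefSeq table (GRCh38.p14), 5′ to 3′ on the strand of the gene, with matches on either strand in capitals. The windows are ISG15 at chr1:1013297-1013496 on the plus strand, IFI6 at chr1:27672193-27672392 on the minus strand, IFIT1 at chr10:89392423-89392622 on the plus strand, IFIH1 at chr2:162318685-162318884 on the minus strand and OAS1 at chr12:112906762-112906961 on the plus strand.
ISG15: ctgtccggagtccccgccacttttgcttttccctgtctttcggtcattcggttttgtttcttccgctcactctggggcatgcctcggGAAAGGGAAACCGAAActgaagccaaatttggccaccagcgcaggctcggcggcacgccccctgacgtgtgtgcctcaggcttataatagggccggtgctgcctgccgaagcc
IFI6: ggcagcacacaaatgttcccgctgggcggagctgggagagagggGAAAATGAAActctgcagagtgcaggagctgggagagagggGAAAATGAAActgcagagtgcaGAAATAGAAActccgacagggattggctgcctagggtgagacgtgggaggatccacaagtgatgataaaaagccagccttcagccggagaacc
IFIT1: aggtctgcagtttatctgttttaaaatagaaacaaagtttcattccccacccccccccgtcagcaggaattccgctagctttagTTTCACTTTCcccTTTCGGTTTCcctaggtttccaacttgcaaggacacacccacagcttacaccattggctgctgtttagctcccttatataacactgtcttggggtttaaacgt
IFIH1: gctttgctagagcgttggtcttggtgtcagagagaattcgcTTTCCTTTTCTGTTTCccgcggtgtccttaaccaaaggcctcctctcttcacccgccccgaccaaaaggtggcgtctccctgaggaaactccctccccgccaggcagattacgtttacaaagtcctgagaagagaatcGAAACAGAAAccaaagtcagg
OAS1: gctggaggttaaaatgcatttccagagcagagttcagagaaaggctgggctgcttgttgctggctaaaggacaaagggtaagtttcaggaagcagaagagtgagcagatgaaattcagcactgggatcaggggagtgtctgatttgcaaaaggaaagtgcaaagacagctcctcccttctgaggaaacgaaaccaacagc
The pattern matched 2 times in ISG15, 3 times in IFI6, 2 times in IFIT1, 3 times in IFIH1 and 0 times in OAS1, with overlapping matches counted separately. Over windows of 300 bases, 17 of the 21 matched interferon genes held it (81.0%), against 643 of 15301 protein-coding genes (4.202%) and 1255 of all 35116 windows (3.57%). A match describes the letters and was not tested as a site, and no match says only that this pattern is not in the window; repeats with another spacing were not searched.

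The interferon genes varied more between the Ctrl libraries than most genes did, with a median coefficient of variation of 29.5% against 9.84% for protein-coding genes of 10 CPM or more. IFIT1, an RNA-binding antiviral protein, stood at 844, 1582 and 1099 CPM, IFIT3 at 1264, 2256 and 1630.5 CPM and MX1, a GTPase that blocks viruses, at 143, 424 and 237 CPM, each lowest in replicate 1 and highest in replicate 2. Of the 22 list members with a mean of 10 CPM or more, 10 had a coefficient of variation of 30% or more, against 128 of 9577 protein-coding genes (1.34%). Of these 22, 17 were lowest in replicate 1 and 20 were highest in replicate 2. Of the 128 variable genes, 78 were lowest in replicate 1 and highest in replicate 2, an order that held for 1695 (17.7%) of the 9577. The 10 most variable genes were LAMP3, IFITM1, IFI27, IFI44L, CEACAM1, TLR3, CCL5 and RBM43, together with the mitochondrial genes MT-ND2 and MT-CYB. The chemokine gene CCL5 stood at 15.4, 46.9 and 23.5 CPM, the adhesion gene CEACAM1 at 4.19, 17.4 and 11.2 CPM and MT-ND2 at 181, 767 and 799.7 CPM, so that MT-ND2 was low in replicate 1 alone while the others were also high in replicate 2. The count of variable genes was 394 without Ctrl replicate 3, 153 without replicate 1 and 121 without replicate 2.

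With WT, 0 of 27 interferon genes tested passed by edgeR and 0 of 28 by DESeq2, and 6 were lower and 0 higher at an unadjusted p under 0.05 (1 lower with DESeq2); the median log2 difference was -0.39. Left-out libraries changed this: 10 were called lower without Ctrl replicate 1 and 8 without WT replicate 2, and 0 without each of the other 4. With the replicate number as a block, 11 were lower, and with no filter on low counts also 11. Over all genes tested, lower calls were 184 without Ctrl replicate 1 and 159 without WT replicate 2. They were 751 in the block fit and 295 with no filter, against 141 in the main fit. The unadjusted counts have no such number over all genes beside them. The list's sum overlapped between Ctrl (9431 to 15110 CPM) and WT (7833 to 12020 CPM), and in both groups replicate 2 was highest. In CPM of the unscaled library total, the sum was 9364 to 15390 in Ctrl and 7947 to 12380 in WT. In the libraries of 2022 it was 6565 to 23870 in p53, 6184 to 6707 in LLPSEp53_1 and 4016 to 4860 in LLPSEp53_2, values that are set side by side only, because year and construct cannot be told apart.

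Expression in Ctrl was largely shared by the other libraries. In CPM of the unscaled library total, 583 list members were expressed in Ctrl, and 563 of them (96.6%) were at 1 CPM or more in each of the other 12 libraries. Of the 157 absent members, 97 (61.8%) had at most 3 counts in each of the 12. A few absent genes were expressed in every library of another group: INSM1 at 2.75, 8.51 and 3.49 in p53 and at 2.07, 2.66 and 3.72 in LLPSEp53_1, OVOL2 at 4.58, 6.55 and 2.85 in p53, and NR5A1, the steroidogenic factor, at 3.79, 4.22 and 2.85 in p53. ATOH1 stood at 1.99, 2.86 and 2.07 in LLPSEp53_1. None of these 4 reached 1 CPM in every WT library, and the 2022 groups have no control vector of their own year among the libraries analysed here.

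Low values were more frequent among genes whose exons lie mostly within other genes. Among protein-coding genes with no exon overlap with another gene on either strand, 6232 of 11078 (56.3%) were expressed, and with overlap of up to 50% 5745 of 7705 (74.6%). At 50 to 90% overlap the share was 29.9% of 599 genes, and at 90% or more it was 7 of 494 (1.42%). The list members with the most overlap were TNFRSF6B, CCDC39, CXCR5, SRXN1 and IFNAR2 (83.3% of its exons, 2.04 CPM). The part of overlap in these single values was not tested.

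The highest protein-coding levels per kb set the scale for all of the above. EEF1A1, a translation factor, stood at 2889.7 ± 157 CPM per kb, TMSB10, an actin-binding peptide, at 2659 ± 233 and GAPDH at 1324 ± 144. The actin genes ACTG1 and ACTB stood at 4459, 2749.6 and 4879 and 3659, 2415 and 3977 CPM, both lowest in replicate 2. HMGA1, an architectural chromatin protein that is high in many tumours, stood at 2078, 2472 and 2813 CPM, lowest in replicate 1. Of the 15 highest, 6 were mitochondrially encoded (MT-CO1, MT-CO2, MT-ND4, MT-CO3, MT-ATP6 and MT-ND1), and each was lowest in replicate 1. The others were ISG15, the elongation factor EEF2 and the ribosomal protein gene RPS12.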

How the data were processed

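Total RNA of H1299 cells was sequenced on the Illumina platform, per the labels' protocols. The submitters' processing notes name GRCh38 as the build and list STAR 2.7.10a and Trimmomatic 0.39. Not given in the sources used here were the strand setting, the annotation, the counter and any poly(A) selection. The authors deposited whole-number counts per gene, 1 file per library with 61552 Ensembl IDs each, read as not normalised from the values. Symbols were matched for 61399 IDs, and positions, exon lengths and biotypes were taken from GENCODE release 29 (58352 IDs matched). Groups came from the sample titles. Every row named a gene.

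CPM were computed with TMM factors over the 6 libraries of 2023, and levels per kb with the union of exons. WT was compared with Ctrl in R 4.3.3 with edgeR 4.0.16 (filterByExpr, TMM, quasi-likelihood test, Benjamini-Hochberg adjustment over all genes tested, threshold 0.05), with DESeq2 1.42.0 as an alternative. Tested on simulated data for WT against Ctrl with 15800 genes, the edgeR script recovered 71% of genes changed 2-fold and 99% of those changed 4-fold, with 13 false calls. Depth was 17069458 to 19228748 counts per Ctrl library, and intervals and limits cover counting error only. The other alternatives were other scalings, thresholds, low-count filters, exon lengths, each library left out and the replicate number as a block.

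The gene lists were chosen with earlier results of these data known. Named were up to 6 members per list with the highest level per kb, absent members, 11 genes named whatever their level (among them CDH1, NKX2-1 and RB1), the 15 highest genes, the 10 most variable and up to 4 called members per list. Genes between the classes, genes named for exon overlap or for lost calls, and further genes of a list named beside these were picked after their values were seen. In the lists, 1 symbol was unmatched, and certain results are not reported here. Promoter sequences came from a RefSeq table (GRCh38.p14) that holds windows of 250 bases before and 50 after a start; no window was found there for CDH1, ESRP1 and SFTPC.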

Additional observations from a re-analysis of the deposited data

How the results depend on the processing

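The classes changed little: with thresholds of 0.5 and 2 CPM, 12746 and 11537 protein-coding genes were expressed in place of 12163, and with total counts in place of TMM 12136 were. The median of list members was 2.23 CPM per kb, and 2.998 with the longest transcript as length. The 128 variable genes became 707 at a minimum of 1 CPM, and between 121 and 394 when a Ctrl library was left out. For WT against Ctrl, the 665 calls ranged from 356 to 1381 with a library left out, the 524 higher from 321 to 723 and the 141 lower from 31 to 658. The lowest counts in all and higher came without WT replicate 1, the lowest of the lower calls without Ctrl replicate 3, and the highest of all 3 without Ctrl replicate 2. With no filter on low counts the lower calls were 295. With the replicate number as a block, 1645 genes were called, 894 higher and 751 lower, and all 73 called list members remained called. Same-numbered libraries of both groups correlated by 0.0859, 0.247 and 0.0209 in their deviations from the group means, and the labels give the number no shared origin, so the block was not used as the main fit. Of the 73 called list members, 71 kept their call with DESeq2 and 47 did under all 11 alternatives; no direction reversed in any of them. The cause of these changes was not tested.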
